A study of Mus musculus with 35 samples.

Results

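The genes described here make microRNAs (miRNAs) and carry them to their targets. They are the 10 mouse genes Drosha, Dgcr8, Xpo5, Dicer1, Tarbp2, Prkra, Ago1, Ago2, Ago3 and Ago4, taken by symbol from a table of 55401 gene identifiers. All 10 were among the 17612 genes that passed the filter on low counts, which kept genes with at least 0.5 CPM (counts scaled to library size) in at least 5 mice. The mRNA came from CD45+ve microglia, the resident macrophages of the brain, which were captured from digested whole brain of wild-type (WT) C57BL/6 mice on dishes coated with an antibody against CD45. Mice of both sexes were taken at postnatal day 6 (P6), P15 and 8 weeks, were given no treatment named in the labels and gave 1 library each. The comparisons use 34 mice, which were 4 female and 6 male mice at P6, 6 and 6 at P15, and 6 and 6 at 8 weeks. P6 female 6 was left out, because it is the library missing from the sample names of the published plots, and the published methods remove an outlier mouse without naming it. CD45 is also carried by other leukocytes, so the capture by itself does not separate microglia from them.

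miRNA genes are copied into long primary transcripts that hold a hairpin. In the nucleus, the RNase III enzyme DROSHA and its RNA-binding partner DGCR8, together called the Microprocessor, cut the hairpin out. Exportin 5, encoded by Xpo5, moves it to the cytoplasm, where a second RNase III enzyme, DICER1, trims it to a short duplex with the help of the double-stranded RNA-binding proteins TARBP2 and PRKRA (PACT). A strand of the duplex is then loaded into an Argonaute protein (AGO1 to AGO4), and this RNA-induced silencing complex (RISC) pairs with target mRNAs through the miRNA seed. AGO2 is the member of the family best known for cutting a fully paired target. In microglia, miRNAs are known to limit inflammatory responses.

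The libraries held between 23316107 and 38965078 fragments counted on genes, and the members took between 0.0425% and 0.0774% of them. The lowest count of any member in any mouse was 219 and the highest was 8555. All 8 microglial markers examined were detected, with a summed level of 7721 to 14048 CPM at P6, 15596 to 31289 CPM at P15 and 21190 to 29947 CPM at 8 weeks. No marker of another cell type examined was at 0 in all mice. The summed level of 4 astrocyte markers was 279 to 713 CPM at P6, 313 to 1903 CPM at P15 and 563 to 1689 CPM at 8 weeks, with medians of 520, 1064 and 897 CPM. That of 5 oligodendrocyte markers was 164 to 451 CPM, 698 to 2831 CPM and 292 to 1558 CPM in the same order, with its highest median, 1225 CPM, at P15. Levels of 4 endothelial markers summed to 36.2 to 95.1, 69.5 to 187 and 93.9 to 232 CPM, those of 6 neutrophil and lymphocyte markers to 12.9 to 41.004, 11.9 to 68.2 and 30.3 to 207 CPM, and those of 9 monocyte and macrophage markers to 724 to 1577, 289 to 1031 and 366 to 719 CPM. The part of these cells in the age differences was not tested. The 6 neuronal and 9 neural progenitor and immature neuron markers had a mean log2 CPM of 4.75 to 6.47 in the P6 mice, 2.83 to 5.60 at P15 and 1.83 to 3.43 at 8 weeks. The summed level of 6 markers of dividing cells was 569 to 883 CPM at P6, 92.2 to 149 CPM at P15 and 17.8 to 27.4 CPM at 8 weeks. P15 male 1 and 8-week male 4 stood apart from their ages in several members and in long mRNAs generally, and the Argonaute shares and the calls that change without them are given both ways. In such bulk samples, a change in the share of cells of a type and a change in RNA per cell cannot be told apart.

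The sequences that tie these genes to miRNAs and to each other are shown first. Dgcr8 (chromosome 16, 18253948 to 18289246 on the minus strand, GRCm38) itself holds hairpins that its own complex can cut. Mir1306 lies within its coding exon sequence, and mir-3618 lies in an exon upstream of the coding sequence. The mature RNAs of RefSeq (GRCm38.p6) are printed with the seed, bases 2 to 8, in capitals, since the seed is what an Argonaute protein presents to its targets.
mmu-miR-1306-5p: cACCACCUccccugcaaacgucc
mmu-miR-1306-3p: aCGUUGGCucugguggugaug
mmu-miR-3618-5p: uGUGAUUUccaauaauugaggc
mmu-miR-3618-3p: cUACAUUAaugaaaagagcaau

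No 2 of these seeds are alike. The mRNA libraries counted 0 fragments on the Mir1306 row in every mouse, and mature miRNAs are too short for such libraries, so no level of these miRNAs is given. Xpo5 (chromosome 17, 46202782 to 46243598, plus strand) holds Mir693 in an intron. Other exons that overlap Dgcr8 or Ago2 on the opposite strand belong to Trmt2a and Chrac1, which share 825 and 219 exonic bases with them in untranslated sequence. The counts were made with the strand of the reads, so these fragments should be separable. Gm49776 shares 327 exonic bases with Dgcr8 on the same strand and had 0 counts in all mice, as did Gm47288, an annotated miRNA gene that shares 72 exonic bases with Drosha.

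The promoters of the Microprocessor pair carried several CCAAT boxes, the element bound by the trimeric factor NF-Y. Of the 9 members with a promoter in the RefSeq table, 5 held CCAAT on either strand in the 250 bases before the start, against 33.8% of 32851 promoters. Drosha held 3, Dgcr8 held 4 and Tarbp2 held 3, a number reached by 2.79% of all promoters. Neither E2F (TTTNNCGC) nor YY1 (AAGATGG) letters were found in any of the 9, against 4.28% and 4.49% of all promoters. ETS letters (CCGGAAG) stood before Drosha and Ago3, against 6.91%, and NRF1 letters (GCATGCG) before Xpo5 and Tarbp2, against 3.02%. Both strands were searched for each motif, and the Drosha ETS match abuts a CCAAT box without overlap. The 9 promoters held 60% to 85.6% G or C and 15 to 46 CG pairs, against medians of 52.4% and 6 over all promoters. The shares over all promoters were not matched for this, and a match is a description of the letters only. The Drosha stretch is chr15:12824650-12824814 on the plus strand and the Dgcr8 stretch is chr16:18289247-18289418 on the minus strand, both GRCm38.p6 and free of annotated exons, with the matches in capitals.
Drosha promoter: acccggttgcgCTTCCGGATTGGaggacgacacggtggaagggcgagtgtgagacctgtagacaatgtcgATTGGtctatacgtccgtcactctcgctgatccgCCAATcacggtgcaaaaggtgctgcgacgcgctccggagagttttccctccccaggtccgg
Dgcr8 promoter: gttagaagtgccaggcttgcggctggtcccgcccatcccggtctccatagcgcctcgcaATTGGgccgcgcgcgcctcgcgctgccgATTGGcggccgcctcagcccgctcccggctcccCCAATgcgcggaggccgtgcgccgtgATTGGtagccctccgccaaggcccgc

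The age comparisons ask how the miRNA machinery itself changes while the miRNA profile of microglia changes. From P6 to 8 weeks, 6 of the 10 mRNAs fell and 2 rose at a false discovery rate (FDR) below 0.05 in edgeR's quasi-likelihood test, adjusted over all 17612 genes. Over all genes, 36.6% were lower and 37.8% were higher at 8 weeks. The mRNAs that fell were Drosha, Dgcr8, Xpo5, Tarbp2, Prkra and Ago2, and those that rose were Ago3 and Ago4. The median log2 fold change (log2FC) of the members was -0.25, beside 0.04 over all genes. None passed a test against a 2-fold change, which 23.8% of all genes passed. At P15, 4 members stood lower than at P6 (31.4% of all genes) and Ago3 stood higher (30.4%). At 8 weeks, 5 members stood lower than at P15 (23.9%) and Dicer1 and Ago4 stood higher (24%). None passed the 2-fold test in these steps either, against 9.73% and 4.26% of all genes. Library-size scaling in place of trimmed mean (TMM) scaling moved the median log2FC of all genes between 8 weeks and P6 by -0.14 and between P15 and P6 by -0.13, and changes below are relative to the TMM-scaled level.

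**Figure D1:**
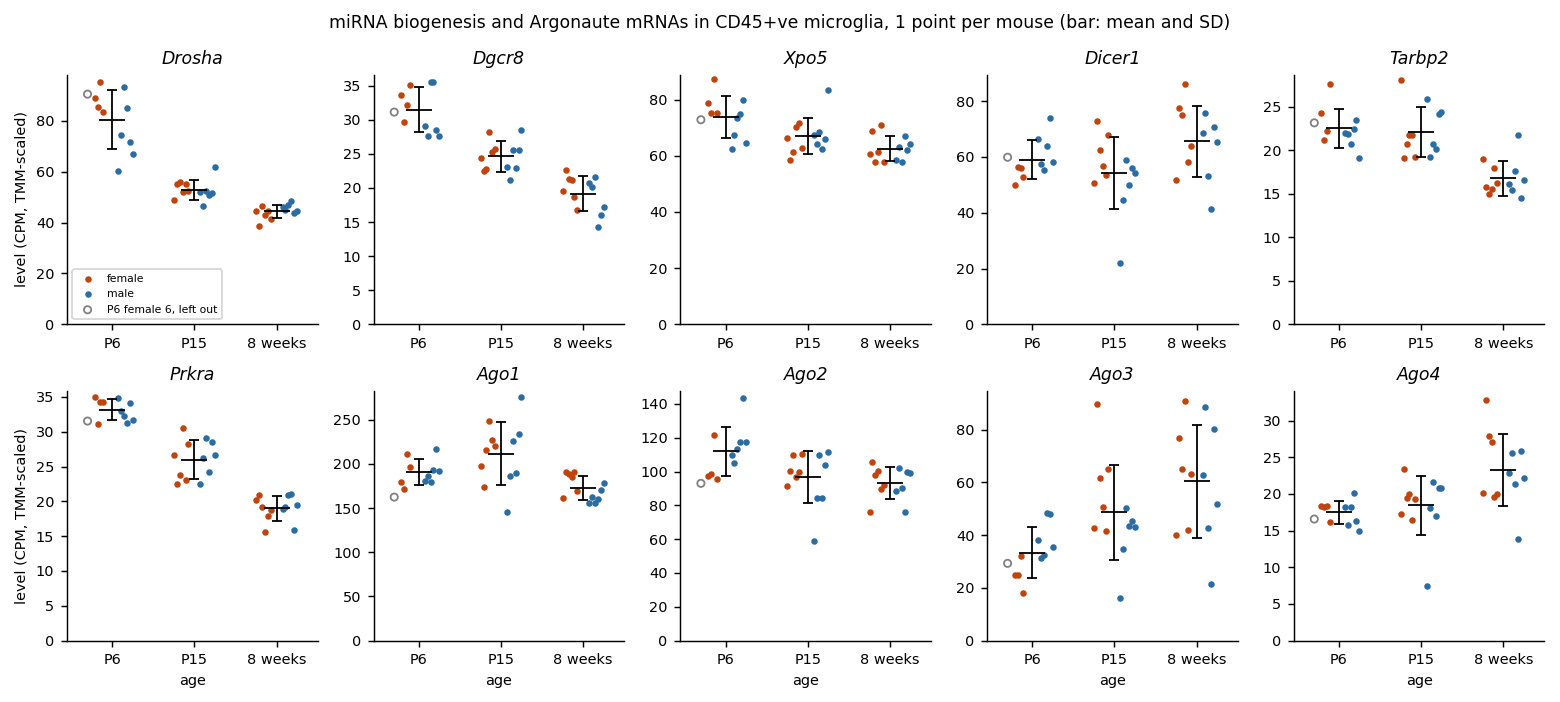
Level of the 10 mRNAs in CPM (vertical axes, each starting at 0) by age (horizontal axes), with 1 point per mouse coloured by sex and a bar for the mean and SD over the mice of an age. The 8-week points of Drosha, Dgcr8 and Prkra lie below every P6 point, while the Ago3 points spread from 21.6 to 91.0 CPM at 8 weeks.

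Drosha (chromosome 15, 12824815 to 12935291, plus strand) had the largest fall of the members in log2FC from P6 to 8 weeks, though not with the neural marker level as a covariate, where Prkra (-1.07, edgeR FDR = 2.13e-07), Dgcr8 (-0.86, edgeR FDR = 0.000137) and Ago1 were lower still. Its level was 60.2, 84.2 and 95.3 CPM (lowest, median and highest mouse) at P6, 46.4, 52.1 and 61.8 CPM at P15, and 38.7, 44.6 and 48.6 CPM at 8 weeks. Every 8-week mouse was below every P6 mouse, and 11 of the 12 P15 mice were too. Its mean dropped to 44.4 CPM ± 2.60 (SD over 12 8-week mice) from 80.4 CPM ± 11.6 (SD over 10 P6 mice), a log2FC of -0.88 ± 0.06 (SE, edgeR FDR = 2.77e-14) that leaves 8-week microglia 45.5% lower. Most of this came by P15, with a log2FC of -0.63 ± 0.06 (edgeR FDR = 1.72e-10), and a further -0.25 ± 0.06 (edgeR FDR = 0.000643) followed by 8 weeks. The step from P15 to 8 weeks was -0.20 (edgeR FDR = 0.0799) in a fit with the neural marker level of each mouse as a covariate.

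The P6 mice were spread more widely in Drosha than the older mice, with a coefficient of variation of 14.4% against 7.28% at P15 and 5.86% at 8 weeks. The lowest P6 levels, between 60.2 and 74.3 CPM, were those of males 1, 2, 5 and 6. These mice also had the lowest neural marker levels of their age, 4.75 to 5.93 against 6.06 to 6.47 on the log2 scale in the other 6 mice, whose Drosha was 83.3 to 95.3 CPM. The part of these cells in the Drosha level of P6 mice was not tested within P6. In the covariate fit, Drosha at 8 weeks was 0.79 lower than at P6 on the log2 scale (log2FC -0.79, edgeR FDR = 2.23e-05).

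Dgcr8, the RNA-binding partner of the Microprocessor, fell in both steps. Its level was 27.6, 30.9 and 35.5 CPM at P6, 21.2, 24.8 and 28.5 CPM at P15, and 14.2, 19.8 and 22.6 CPM at 8 weeks. The 8-week mice did not overlap the P6 mice. The log2FC was -0.36 ± 0.08 (edgeR FDR = 0.000133) to P15, then -0.36 ± 0.07 (edgeR FDR = 0.000136), and -0.72 ± 0.08 (edgeR FDR = 4.70e-10) from P6 to 8 weeks.

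Prkra, the partner of DICER1 also known as PACT, fell in both steps. Its level was 31.2, 33.6 and 34.9 CPM at P6, 22.5, 26.4 and 30.6 CPM at P15, and 15.6, 19.2 and 21.0 CPM at 8 weeks, and no pair of neighbouring ages overlapped. It was the only member without overlap in each step, beside 7.72% of all genes with every P15 mouse below every P6 mouse and 1.72% with every 8-week mouse below every P15 mouse. No member lay above without overlap in these steps, as 5.25% and 1.65% of genes did. From P6 to 8 weeks it fell by 0.81 ± 0.06 on the log2 scale (edgeR FDR = 1.08e-12), with -0.35 ± 0.06 to P15 (edgeR FDR = 1.97e-05) and -0.45 ± 0.06 after it (edgeR FDR = 5.59e-07). Thus 3 members, Drosha, Dgcr8 and Prkra, had all 8-week mice below all P6 mice, as did 14.8% of all genes. No member had all 8-week mice above all P6 mice, which again 14.8% of genes had.

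Tarbp2, the other dicing partner, was called lower in the later step and not in the earlier, and the difference between the steps was not tested. Its level was 19.2, 22.1 and 27.7 CPM at P6 and 19.1, 21.3 and 28.1 CPM at P15, with a log2FC of -0.04 (95% interval -0.19 to 0.11, edgeR FDR = 0.676). At 8 weeks it was 14.5, 16.2 and 21.7 CPM, and 11 of the 12 mice were below every P15 mouse. This later step was -0.39 ± 0.07 (edgeR FDR = 6.80e-05), and the whole change from P6 was -0.43 ± 0.08 (edgeR FDR = 9.61e-06). With library-size scaling the earlier step was called lower too (-0.17, edgeR FDR = 0.0358). It is -0.04 once the shift of all genes under that scaling is taken off.

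Xpo5, whose product carries the hairpins out of the nucleus, fell by a smaller amount. Its level was 62.5, 75.0 and 87.4 CPM at P6, 58.5, 66.1 and 83.5 CPM at P15, and 57.7, 61.8 and 71.0 CPM at 8 weeks, and the ages overlapped. From P6 to 8 weeks it fell by 0.26 ± 0.06 on the log2 scale (edgeR FDR = 0.000234). The step to P15 was -0.16 ± 0.06 (edgeR FDR = 0.0193), but its FDR was 0.0921 with only these ages in the fit and 0.0561 without the filter on low counts. With the neural covariate the values were larger, at -0.57 from P6 to 8 weeks (edgeR FDR = 0.000243) and -0.29 to P15 (edgeR FDR = 0.000708), and the step from P15 to 8 weeks was then called too (-0.27, edgeR FDR = 0.00637).

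Dicer1, which makes the miRNA duplex, was not called lower in any comparison. Its level was 49.9, 57.0 and 73.9 CPM at P6, 21.9, 55.1 and 73.0 CPM at P15, and 41.3, 66.9 and 86.3 CPM at 8 weeks. The 8-week mice reached higher than the P6 mice but overlapped them, and the log2FC from P6 to 8 weeks was 0.18 (95% interval -0.06 to 0.42, edgeR FDR = 0.193). The rise from P15 to 8 weeks was 0.29 ± 0.12 (edgeR FDR = 0.0409), and 9 of 19 alternative fits lost it. Without P15 male 1, the mouse at 21.9 CPM, this step was 0.19 (edgeR FDR = 0.0727), without this mouse and 8-week male 4 it was 0.28 (edgeR FDR = 0.00695), and with the neural covariate it was 0.02 (edgeR FDR = 0.941).

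**Figure D2:**
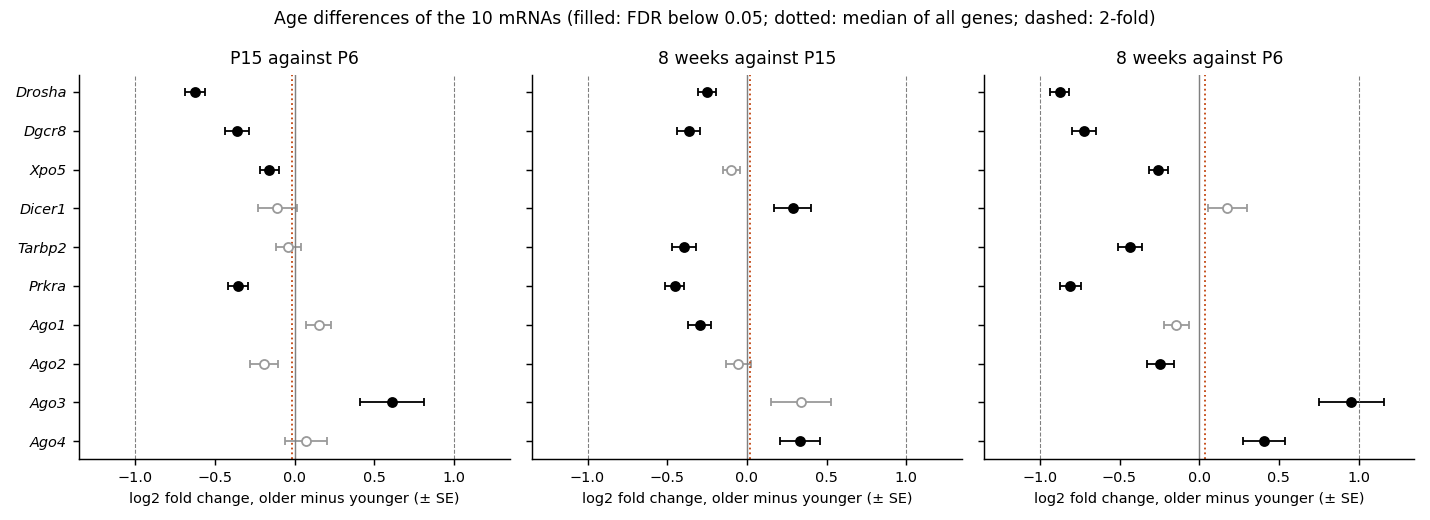
Log2FC of each member (horizontal axes, older minus younger age, bars are SE) in the 3 age comparisons, with filled points at FDR below 0.05, a dotted line at the median of all genes and dashed lines at a 2-fold change. Drosha, Dgcr8, Xpo5, Tarbp2, Prkra and Ago2 lie to the left of 0 in all 3 panels. Ago3 and Ago4 lie to the right of 0 in all 3, and no member's point passes a 2-fold line.

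Among the Argonaute genes, Ago3 rose and Ago2 fell between P6 and 8 weeks. Ago3 was 18.04, 32.2 and 48.4 CPM at P6, 16.03, 44.3 and 89.8 CPM at P15, and 21.6, 62.9 and 91.0 CPM at 8 weeks. The ages overlapped, and 8 of the 12 8-week mice were above every P6 mouse. The log2FC was 0.95 ± 0.20 from P6 to 8 weeks (edgeR FDR = 0.000109), which is close to 2-fold at 1.94 times but did not pass the 2-fold test (edgeR FDR = 0.869). It was 0.61 ± 0.20 to P15 (edgeR FDR = 0.00970) and 0.34 ± 0.19 after it (edgeR FDR = 0.133). The later step was called without 8-week male 4 (0.45, edgeR FDR = 0.0296) and lay at the threshold without it and P15 male 1 (0.37, edgeR FDR = 0.04997). With the neural covariate, the whole change was 0.67 (edgeR FDR = 0.252) and that to P15 was 0.49 (edgeR FDR = 0.117).

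Ago4 also rose. It lies at 126489541 to 126533472 on the minus strand of chromosome 4, beside Ago1 (126435012 to 126468583) and Ago3 (126331704 to 126429556) on the same strand. Its level was 14.98, 18.3 and 20.1 CPM at P6, 7.39, 19.4 and 23.3 CPM at P15, and 13.9, 22.5 and 32.8 CPM at 8 weeks. The median shifted upwards at 8 weeks while the ranges overlapped. From P6 to 8 weeks its log2FC was 0.41 ± 0.13 (edgeR FDR = 0.00681), and from P15 it was 0.33 ± 0.12 (edgeR FDR = 0.0276). The change from P6 was 0.02 (edgeR FDR = 0.965) with the neural covariate and 0.27 (edgeR FDR = 0.0859) with library-size scaling, which is 0.41 once the shift of all genes under that scaling is taken off. That from P15 was 0.11 (edgeR FDR = 0.679) with the covariate and 0.32 (edgeR FDR = 0.0569) without the filter on low counts.

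Ago2, the slicing Argonaute, was 95.6, 111 and 144 CPM at P6, 59.0, 99.8 and 112 CPM at P15, and 76.0, 95.1 and 105 CPM at 8 weeks. Of the 12 8-week mice, 6 were below every P6 mouse. It was lower at 8 weeks than at P6 with a log2FC of -0.25 ± 0.09 (edgeR FDR = 0.0108). The step to P15 was -0.19 ± 0.09 and just missed the threshold (edgeR FDR = 0.0511), and 13 of 19 alternative fits called it. It was -0.14 (edgeR FDR = 0.0705) without P15 male 1, -0.21 (edgeR FDR = 0.0189) without 8-week male 4 and -0.16 (edgeR FDR = 0.0264) without both. With the neural covariate the change from P6 was -0.73 at 8 weeks (edgeR FDR = 0.00109) and -0.40 at P15 (edgeR FDR = 0.00142), and 8 weeks was called lower than P15 (-0.33, edgeR FDR = 0.0251).

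Ago1 was called lower at 8 weeks than at P15 and was not called in the other comparisons. It was 171, 189 and 217 CPM at P6, 145, 218 and 276 CPM at P15, and 156, 170 and 191 CPM at 8 weeks. The P15 mice spanned both other ages. Its log2FC was -0.30 ± 0.07 from P15 to 8 weeks (edgeR FDR = 0.00152), 0.15 ± 0.08 from P6 to P15 (edgeR FDR = 0.0924) and -0.14 ± 0.08 from P6 to 8 weeks (edgeR FDR = 0.0939). Without P15 male 1 and 8-week male 4 the step to P15 was called higher (0.17, edgeR FDR = 0.0174) and 8 weeks lower than P6 (-0.15, edgeR FDR = 0.0314). The change from P6 to 8 weeks was called lower in 8 of 19 alternative fits, among them the fit without P15 male 1 alone. This change was -0.80 (edgeR FDR = 4.23e-06) with the neural covariate, under which the fall from P15 was -0.66 (edgeR FDR = 1.69e-07).

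Levels of different genes were compared per kilobase of exon (RPKM). This divides by the whole annotated exonic length, 2028 bases for Prkra and 16750 for Dicer1, and assumes that all of it was transcribed. In CPM, the P6 mean of Dicer1 (59.0) was above that of Prkra (33.2). Ago1 had the highest level per length at each age, with 23.5 RPKM ± 1.78 (SD, n = 10) at P6 and 21.3 ± 1.69 (n = 12) at 8 weeks. At P6 the order was Ago1, Prkra, Drosha, Xpo5, Ago2, Tarbp2, Dgcr8, Dicer1, Ago4 and Ago3, from 23.5 to 2.01 RPKM, and only Ago4 and Ago3 differed by less than the larger of their SDs. At 8 weeks Drosha stood at 7.48 RPKM ± 0.44, below Xpo5 at 9.11 ± 0.65, while at P6 it stood above it, with 13.6 ± 1.96 against 10.8 ± 1.09. At P15 Xpo5 and Drosha, and the run of Dicer1, Dgcr8, Ago3 and Ago4, differed from their neighbours by less than the larger SD. Dgcr8 was the lowest at 8 weeks with 2.49 RPKM ± 0.34. At that age Prkra and Xpo5, and the run of Dicer1, Tarbp2, Ago3 and Ago4, differed from their neighbours by less than the larger SD.

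The make-up of the Argonaute mRNA pool was described as the share of each gene in the summed level per length. Ago1 held 65.3% ± 2.25 of it at P6 (SD, 10 mice), 67.7% ± 4.21 at P15 (12 mice) and 61.2% ± 4.13 at 8 weeks (12 mice). The share of Ago2 was 22.1% ± 1.25 at P6, 17.9% ± 0.99 at P15 and 19.0% ± 0.85 at 8 weeks. Its P15 mice, at 15.9% to 19.1%, were all below the P6 mice, at 19.8% to 24.2%. Ago3 took 5.54% ± 1.31, 7.55% ± 2.64 and 10.3% ± 3.01 in the same order, and Ago4 took 7.04% ± 0.86, 6.85% ± 1.09 and 9.53% ± 1.25. Without P15 male 1 and 8-week male 4, which had the highest Ago1 share and the lowest Ago3 and Ago4 shares of their ages, the shares at P15 and 8 weeks (11 mice each) were 67.1% ± 3.86 and 60.4% ± 3.39 for Ago1, 17.9% ± 1.02 and 19.04% ± 0.89 for Ago2, 7.87% ± 2.504 and 10.8% ± 2.54 for Ago3, and 7.07% ± 0.81 and 9.75% ± 1.01 for Ago4. These shares assume that each gene's whole exonic length was transcribed.

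**Figure D3:**
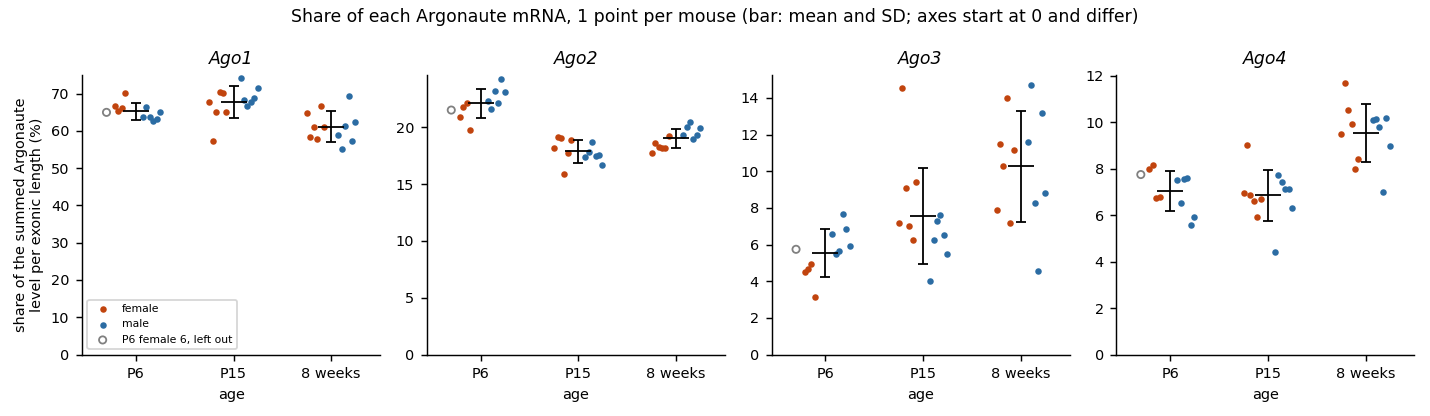
Share of Ago1, Ago2, Ago3 and Ago4 in their summed level per exonic length (vertical axes, %, each starting at 0 on its own scale) by age, with 1 point per mouse and bars for mean and SD. The mean share of Ago3 goes from 5.54% at P6 to 10.3% at 8 weeks, and that of Ago2 from 22.1% to 19.0%.

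A pair of mice stood apart in several members. P15 male 1 had the lowest level of the 12 P15 mice for 6 members, which were Dicer1, Prkra and the 4 Argonaute genes. Its Ago3 was 16.03 CPM against 34.7 to 89.8 CPM in the others, and its Ago4 was 7.39 CPM against 16.4 to 23.3 CPM. 8-week male 4 was lowest of its age for Dgcr8, Dicer1, Ago2, Ago3 and Ago4, with Ago3 at 21.6 CPM against 39.9 to 91.0 CPM, and highest for Drosha, Tarbp2 and Prkra. The members that were lowest in both mice include those with the longest exonic sequence, Dicer1 (16750 bases), Ago3 (16571) and Ago2 (14031). Ago4 (6947 bases) was also lowest in both, and Prkra, the shortest member (2028 bases), was lowest in P15 male 1. Xpo5, at 6859 bases, was not lowest in either mouse.

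These mice also had the lowest levels of long mRNAs in general. A long-transcript index was taken as the median deviation of log2 CPM over 1448 protein-coding genes with at least 10000 exonic bases, members left out. It was -0.56 in P15 male 1, where the next P15 mouse had -0.18, and -0.48 in 8-week male 4, where the next had -0.10. The P6 mice ranged from -0.14 to 0.23. With both mice left out, the log2FC from P6 to 8 weeks was 1.04 for Ago3 (edgeR FDR = 1.64e-06), 0.45 for Ago4 (edgeR FDR = 3.51e-05) and -0.89 for Drosha (edgeR FDR = 1.98e-14), each at least as large in size as with them. Dicer1 was then called higher at 8 weeks than at P6, with a log2FC of 0.22 (edgeR FDR = 0.0224). With the index as a covariate, the log2FC of Ago3 was 0.77 (edgeR FDR = 1.20e-08). The reason for the low index of these mice was not tested.

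**Figure D4:**
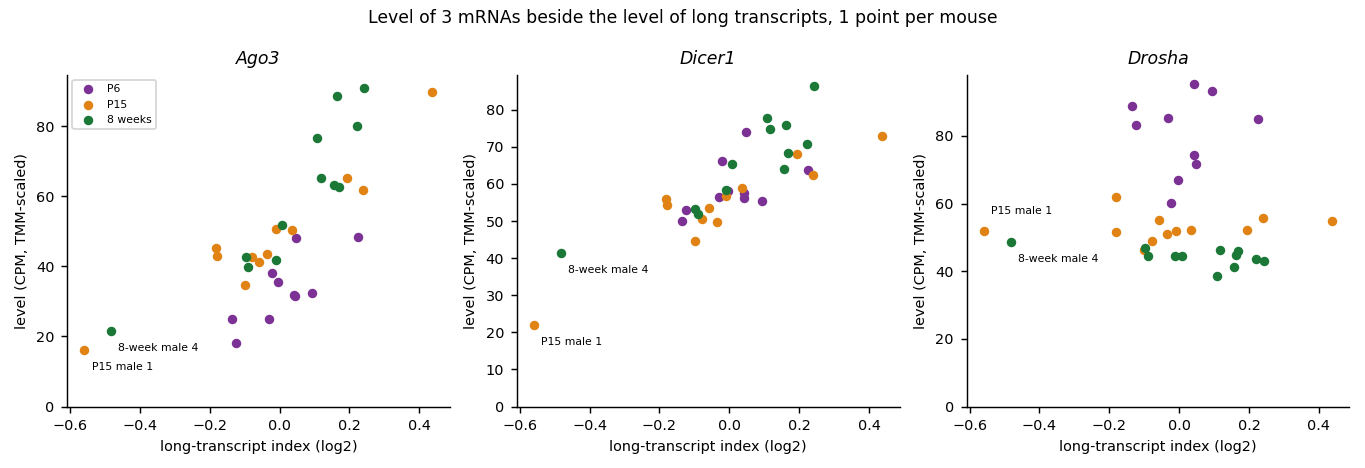
Level of Ago3, Dicer1 and Drosha in CPM (vertical axes) against the long-transcript index of each mouse (horizontal axes, log2), coloured by age. The lowest index values, -0.56 and -0.48, belong to P15 male 1 and 8-week male 4, which have the lowest Ago3 and Dicer1 of their ages, while all 8-week points of Drosha lie below all of its P6 points.

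The genes with patterns nearest to the extremes were found over the 34 mice as those with the smallest root mean square difference of mean-centred log2 CPM. For Drosha these were Ncbp1, a subunit of the nuclear cap-binding complex, at a difference of 0.10, Kdm1a, a histone demethylase, at 0.10, and Polr2m, at 0.11, where the median gene was at 0.67. Ncbp1 was also among the Microprocessor cofactors listed below. For Ago3 they were Nfat5, a transcription factor of the osmotic stress response, at 0.13, Kdm7a, a histone demethylase, at 0.16, and Kmt2c, a histone methyltransferase, at 0.17, where the median was 0.81. A gene with a flat level would differ by 0.37 from Drosha and by 0.62 from Ago3. All 3 neighbours of Ago3 have over 10000 exonic bases, with 18378, 10057 and 20291. Of the 17612 genes, 1448 protein-coding genes other than members have at least 10000. The mice with the low long-transcript index were among the 34 used to pick these neighbours.

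No member passed an FDR of 0.05 between male and female mice at any age, where 0.0511% of all genes did at P6, 0.0681% at P15 and 0.114% at 8 weeks. At an unadjusted p under 0.05 there were 2 members at P6, 2 at P15 and 0 at 8 weeks by edgeR, beside 7.1%, 18.2% and 2.94% of all genes. With limma-voom 0 members passed the FDR and 1, 2 and 0 had such an unadjusted p (8.36%, 19.9% and 2.82% of all genes), and with DESeq2 0 passed and 3, 2 and 0 had one (8.11%, 20.6% and 3.41%). At P6, Drosha was 75.3 CPM in males and 88.2 CPM in females (log2FC -0.23 ± 0.09, edgeR FDR = 0.696), and Ago3 was 38.999 and 24.96 CPM (log2FC 0.64 ± 0.30, edgeR FDR = 0.696). At P15 the difference in Ago3 had the other sign, with 38.8 CPM in males and 58.5 CPM in females (log2FC -0.59 ± 0.27, edgeR FDR = 0.259). The males include P15 male 1, the lowest P15 mouse at 16.03 CPM, and the females include P15 female 2, the highest at 89.8 CPM. Neither Ago3 nor any other member passed the test of the sex-by-age interaction. The lowest FDR of a member in it was 0.406, and 0% of all genes were called.

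The wider pathway was followed in 66 further genes in 7 lists, of which 62 passed the filter. From P6 to 8 weeks 28 of the 62 fell, 18 rose and 16 were not called. From P6 to P15 it was 30, 12 and 20, and from P15 to 8 weeks 12, 14 and 36, in the same order. Of all genes, 36.6% were lower and 37.8% higher from P6 to 8 weeks, 31.4% and 30.4% from P6 to P15, and 23.9% and 24% from P15 to 8 weeks, so the counts of the last step were near the background. Microprocessor cofactors had 9 of 11 genes lower and 2 higher and a median log2FC of -0.49. Hnrnpa1, an RNA-binding protein that helps some primary miRNAs to be cut, averaged 825 CPM ± 104 in P6 mice (SD, n = 10) and 347 CPM ± 63.6 in 8-week mice (n = 12), a log2FC of -1.25 ± 0.13 that passed the 2-fold test (edgeR FDR = 0.0341). The helicase Ddx5 rose in the same list, from 1137 CPM ± 161 to 1851 CPM ± 436 (log2FC 0.73 ± 0.15, edgeR FDR = 9.45e-05).

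Of the 3 nuclear export genes, 2 fell, a number too small to read against the 36.6% of all genes that were lower. Ran, the GTPase that Exportin 5 needs to bind its cargo, had the largest fall, from 296 CPM ± 19.1 (SD, n = 10) to 97.2 CPM ± 14.4 (n = 12), with no overlap between these ages (250.5 to 312 against 77.3 to 129 CPM). Its log2FC of -1.61 ± 0.07 passed the 2-fold test (edgeR FDR = 7.22e-10). Of the chaperones that help load RISC, 5 of 8 fell and 1 rose, beside 36.6% and 37.8% of all genes, with a median of -0.47. Stip1, a co-chaperone that links HSP70 and HSP90, fell by 0.96 ± 0.10 on the log2 scale (edgeR FDR = 1.81e-10), while Hsp90aa1, the inducible HSP90, rose by 0.98 ± 0.24 (edgeR FDR = 0.000498). The summed level of markers of dividing cells, given above, was also lower at the older ages, and their part in these falls was not tested.

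Among the genes that act after loading, some rose and some fell, with medians near that of all genes (0.04), of which 37.8% were higher and 36.6% lower. Of 9 RISC partners tested, 4 rose and 2 fell, with a median of 0.08. Tnrc6a, which encodes the GW182 protein that joins Argonaute to the deadenylases, rose from 74.1 CPM ± 9.78 to 135 CPM ± 22.2 (log2FC 0.89 ± 0.12, edgeR FDR = 8.89e-08), and Snd1 fell by 0.37 ± 0.10 on the log2 scale (edgeR FDR = 0.000899). Of 17 deadenylation and decay genes, 7 rose and 4 fell, with a median of 0.05. Pan3 of the PAN2-PAN3 deadenylase rose by 1.10 ± 0.14 on the log2 scale (edgeR FDR = 3.94e-08), and Cnot6, a catalytic subunit of the CCR4-NOT deadenylase, had a log2FC of -1.16 ± 0.15 (edgeR FDR = 2.74e-08).

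Of 13 genes for tailing, editing and turnover of miRNAs, 4 rose and 6 fell, near the 37.8% and 36.6% of all genes, with a median of -0.08. Lin28b, which blocks maturation of the let-7 family in immature cells, was at 1.19 to 3.77 CPM at P6 and 0 to 0.714 CPM at 8 weeks. Its log2FC was -3.14 ± 0.39 and passed the 2-fold test (edgeR FDR = 3.23e-06), at a level that is low at each age and beside the lower neural marker levels given above, whose part was not tested. Tut4, a terminal uridylyltransferase that LIN28 recruits, rose by 0.57 ± 0.18 (edgeR FDR = 0.00634). Of the Piwi family, which acts in the germ line, only Piwil2 passed the filter, and its log2FC was -0.29 (edgeR FDR = 0.302).

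**Figure D5:**
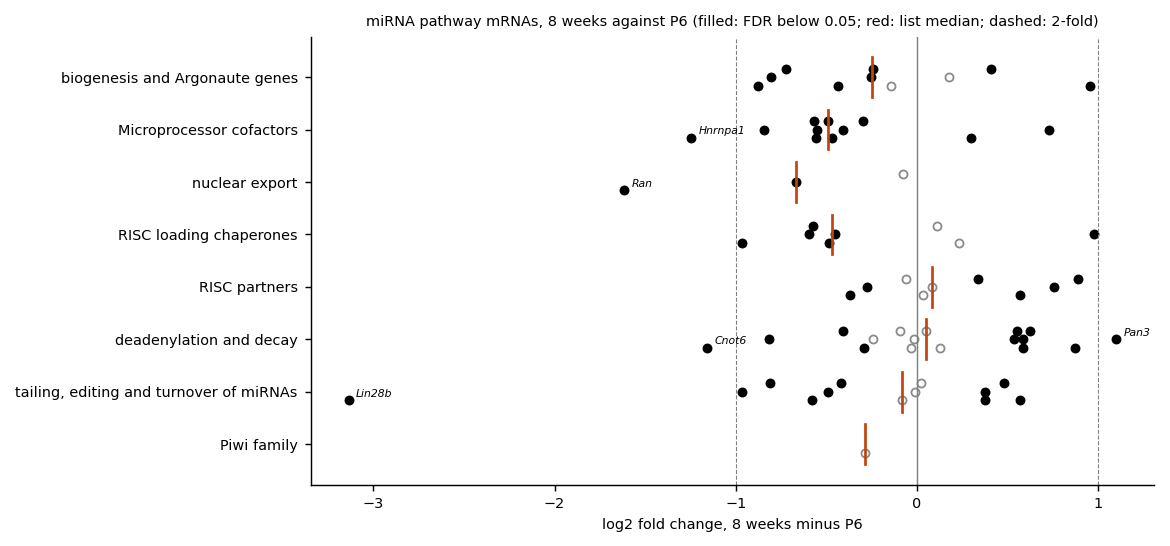
Log2FC from P6 to 8 weeks (horizontal axis) of the biogenesis and Argonaute genes and of 7 further lists of the miRNA pathway (rows), with 1 point per gene, filled at FDR below 0.05, and a red bar at each list's median. Ran, Hnrnpa1 and Lin28b passed the 2-fold test, and the medians of the cofactor, export and chaperone lists lie between -0.67 and -0.47.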

How the data were processed

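CD45+ve microglia of 35 mice were sequenced by the authors as directional paired-end mRNA libraries. Per the methods, the authors aligned reads with STAR to GRCm38/mm10 and counted fragments per gene with featureCounts, using read strand. The submitters' processing notes also list fastp 0.20.0. The annotation release is not given in the sources used here. The deposited values are raw counts, with 0 columns from outside this series. Of 55401 identifiers, 55141 were named from GENCODE M21, whose release may differ from that of the authors.

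Tests were run with edgeR 4.0.16 in R 4.3.3 (TMM scaling, robust quasi-likelihood test, a mean for each of 6 age and sex groups, Benjamini-Hochberg over 17612 genes, FDR below 0.05). The age difference is the mean of the female and male differences, and log2 CPM used a prior count of 2. The test against a 2-fold change used glmTreat. limma 3.58.1 and DESeq2 1.42.0 gave alternatives, and the tables and figures were made in Python 3.11.15 (matplotlib 3.10.9, scipy 1.17.1, pandas 2.3.3, numpy 2.4.6). SE is the log2FC divided by the square root of F. RPKM is CPM per kilobase of GENCODE exon. The fit was tested on simulated data. Depth was 23316107 to 38965078 fragments. Each library is a separate mouse. No within-group pair of libraries was a copy.

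The genes, further lists and alternatives were chosen with earlier results of these data known. Named genes were all 10 members, list genes past 2-fold in any age comparison, the called gene with the largest rise and fall per list from P6 to 8 weeks, and the 3 genes nearest in pattern to the member with the largest rise and fall.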

Additional observations from a re-analysis of the deposited data

Results flagged for a closer look

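A mouse was singled out where its gap to the nearest mouse of its age and sex group was unusually large beside the range of that group (Dixon's 95% limit). Of 60 such groups, 7 had one, where chance gives about 1 in 20. Ago4 in P15 male 1 was 7.39 CPM against 17.0 to 21.6 CPM in the other 5 males. P6 male 5 was high for Ago1, at 217 CPM against 180 to 193 CPM, and for Ago2, at 144 CPM against 105 to 118 CPM. In the P6 females, Ago2 was 122 CPM in number 3 against 95.6 to 98.5 CPM, and Ago4 was 16.2 CPM in number 5 against 18.3 to 18.4 CPM. At P15, Xpo5 was 83.5 CPM in male 6 against 62.5 to 68.3 CPM, and Tarbp2 was 28.1 CPM in female 1 against 19.1 to 21.8 CPM. The cause of these values was not tested.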

How the results depend on the processing

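The 30 age differences of the members were refitted under 19 alternatives. Of the 570 values, 518 kept their direction and side of the threshold, 18 lost the call, 30 gained one and 4 changed sign. The falls of Drosha, Dgcr8, Xpo5, Tarbp2, Prkra and Ago2 from P6 to 8 weeks were called in all 19. Over these fits, 3 to 6 members were lower at P15 than at P6. The number was 5 to 6 at 8 weeks against P15 and 6 to 7 at 8 weeks against P6. Leaving out P15 male 1, 8-week male 4 or both (also for the Argonaute shares), and the long-transcript covariate, were chosen after seeing the data. With the neural marker level as a covariate, 0 members were higher in each of the 3 comparisons, and Ago1 at P15 against P6 (-0.14), Ago4 at P15 against P6 (-0.10) and Dicer1 at 8 weeks against P6 (-0.29) changed sign, none of them called. Neural levels of the P6 and 8-week mice do not overlap, so age and covariate are hard to separate there. Library-size scaling, which shifted all genes, gave Ago4 -0.056 at P15 against P6, or 0.07 relative to the shift of -0.13, and left 1 member higher at 8 weeks than at P15 and 1 than at P6. At P15 against P6, 2 members were higher with all 35 mice and with both low mice left out, and leaving out single mice gave 1 to 2. At 8 weeks against P15, 0 members were higher without the filter, 1 without sex in the model, 1 with only the ages compared, and 1 to 3 with single mice left out. Without P15 male 1, Ago1 was also called higher at P15 than at P6 (0.19) and lower at 8 weeks than at P6. Without 8-week male 4, Ago3 was called higher at 8 weeks than at P15 (0.45). Members past 2-fold stayed at 0 in all 19 alternatives, and members called by sex or its interaction in the 17 that were run for them, which leave out age without sex and the fits of the compared ages alone. Without division by exonic length, the share of Ago1 was 54.1% at P6, 56.6% at P15 and 49.8% at 8 weeks, that of Ago2 was 31.6%, 25.8% and 26.7%, that of Ago3 was 9.33%, 12.8% and 16.9%, and that of Ago4 was 4.99%, 4.88% and 6.61%. The replicate numbers mark different animals, and 27 of 80 same-numbered pairs correlated above 0.1 (median r = 0.03). With the number as a replicate block, Ago1 was called lower from P6 to 8 weeks as well (log2FC -0.16, edgeR FDR = 0.0424), Ago2 was called lower at P15 than at P6 (log2FC -0.21, edgeR FDR = 0.0218), and no other call changed.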

Other observations

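P6 female 6, left out of the comparisons, had Drosha at 90.4 CPM, Dgcr8 at 31.1 CPM and Prkra at 31.5 CPM, each within the range of the other 10 P6 mice. Its Ago1 level was 162 CPM, below the 171 CPM of the lowest other P6 mouse, and its Ago2 level was 93.0 CPM against a lowest of 95.6 CPM. Its Argonaute shares were 65.0% for Ago1, 21.5% for Ago2, 5.74% for Ago3 and 7.75% for Ago4.

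Trim71, Lin28a, Piwil1 and Piwil4, members of the further lists, did not pass the filter, and their highest counts in any mouse were 5, 15, 7 and 23 fragments.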
